A study of Mus musculus with 8 samples.

Results

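The gene Trp53, which encodes the transcription factor p53, was followed together with 9 genes of its classic pathway in RNA-Seq of mouse fetal germ cells with and without Snf5. The members were Trp53, the p53 inhibitors Mdm2 and Mdm4, and the p53 targets Cdkn1a, Phlda3, Ccng1, Sesn2, Fas, Trp53inp1 and Zmat3. They were found by gene symbol and are 10 of 24631 gene symbols in the deposited tables. All 10 were listed in both the female and the male table. The 8 libraries came from germ cells at E15.5, 2 from each genotype (control or Snf5 CKO) in each sex.

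Snf5, whose gene symbol is Smarcb1, belongs to the core of SWI/SNF, a complex that remodels chromatin. Snf5 CKO embryos carried one floxed and one deleted Snf5 allele together with TNAP-Cre, a Cre inserted into the alkaline phosphatase gene Alpl that recombines in primordial germ cells. Control libraries mixed germ cells of Snf5 fx/+, of Snf5 fx/Δ and of Snf5 fx/+ with TNAP-Cre embryos, so some controls also carried the deleted allele or Cre. Every embryo used for sorting carried Oct4-EGFP, a transgene that makes germ cells fluoresce. Recombination by TNAP-Cre is mosaic, and germ cells that kept SNF5 remained in Snf5 CKO gonads. The labels give the strain as C57BL/6, while the study's methods describe a mixed background of C57BL/6 with other strains. The duplicates were pools of cells from embryos of a group, except that male Snf5 CKO replicate 2 came from a single embryo.

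p53 binds DNA at a motif built of 2 similar half-sites and switches on genes that stop the cell cycle, repair DNA, restrain growth signals or start apoptosis. Mdm2 marks p53 protein for degradation and is itself a p53 target, which closes a feedback loop, and Mdm4 binds p53 and blocks its activity. p53 is regulated mostly as a protein, so RNA levels of Trp53 do not measure its activity. In the germ line, p53 is known for its part in spermatocytes and in the removal of damaged germ cells, and its relative p63 is known as the guard of resting oocytes.

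The stretches in front of the members' start sites are shown for the 4 members with a match to the p53 half-site consensus, because they let the responses be read beside the DNA. The consensus is a run of purines, a C, a pair of A or T bases, a G and a run of pyrimidines, 10 bases in all, and it reads the same on both strands. Sequences are RefSeq windows of 250 bases before a gene start on GRCm38.p6, the patched form of the mm10 build, written in the direction of transcription. Bases that the annotation places in an exon of any gene were left out. Capitals mark the half-site matches.
Trp53, chr11:69580256-69580358, plus strand: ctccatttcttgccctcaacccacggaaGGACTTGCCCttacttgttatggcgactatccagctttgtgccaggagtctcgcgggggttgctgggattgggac
Mdm2, chr10:117710759-117711008, minus strand: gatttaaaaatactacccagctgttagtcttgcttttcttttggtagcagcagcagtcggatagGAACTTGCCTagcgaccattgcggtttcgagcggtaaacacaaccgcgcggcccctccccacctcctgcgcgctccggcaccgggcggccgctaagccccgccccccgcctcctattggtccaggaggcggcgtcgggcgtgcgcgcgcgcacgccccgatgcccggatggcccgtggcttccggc
Cdkn1a, chr17:29090729-29090975, plus strand: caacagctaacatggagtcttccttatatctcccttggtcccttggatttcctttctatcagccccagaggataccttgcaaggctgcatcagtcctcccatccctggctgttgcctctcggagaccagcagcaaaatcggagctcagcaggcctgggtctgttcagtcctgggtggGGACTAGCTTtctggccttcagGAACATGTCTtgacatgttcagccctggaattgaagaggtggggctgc
Ccng1, chr11:40755312-40755536, minus strand: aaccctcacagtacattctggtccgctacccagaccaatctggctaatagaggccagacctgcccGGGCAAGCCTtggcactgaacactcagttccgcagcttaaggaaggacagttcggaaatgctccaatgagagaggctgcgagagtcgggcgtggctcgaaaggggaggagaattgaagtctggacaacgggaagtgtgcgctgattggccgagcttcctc

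Of the 10 members, 8 had such windows, 10 in all since Mdm4 and Cdkn1a had 2 starts each, and Trp53inp1 and Zmat3 had none. A half-site was found in 4 of the 10 windows, against 7.13% of 32851 windows over the genome. In the Trp53 window the match GGACTTGCCC began 75 bases before the start, and in the Mdm2 window GAACTTGCCT began 186 bases before it. The Cdkn1a window held GGACTAGCTT at 73 and GAACATGTCT at 51 bases before the start, and it lay 2790 bases upstream of the window of the second Cdkn1a start. It was the only member window with 2 half-sites whose starts lay 10 to 23 bases apart, an arrangement found in 0.0639% of all windows. The Ccng1 match GGGCAAGCCT began 185 bases before the start. Only exact matches were counted and marked. In the Cdkn1a window the 10 bases right after GAACATGTCT differ from the consensus only in the first base, so they were not marked. Matches are a description of letters, and windows without one (Mdm4, Phlda3, Sesn2, Fas) say nothing about p53 binding elsewhere.

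Values are FPKM, fragment counts scaled for transcript length and for the fragments mapped, which can be set beside each other between genes because they are divided by length. Log2 fold changes are Snf5 CKO minus control on the log2(FPKM + 1) scale, where changes of low genes come out too small. A gene was called when this was at least 1 in size with an adjusted p under 0.05 in limma, with p adjusted over all tested genes of that sex. Each sex was quantified in its own table, so no test was made between the sexes. The targeted gene Smarcb1 was at 23.4 and 22.3 FPKM in female controls and 4.24 and 2.47 in female Snf5 CKO. In males the values were 141 and 167 in controls and 8.73 and 10.1 in Snf5 CKO. The log2 fold change of Smarcb1 was -2.48 (SE 0.24, adjusted p = 0.00027) in females and -3.90 (SE 0.18, adjusted p = 0.0021) in males.

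Changes between the genotypes were common over all genes. In females 17.3% of 11529 tested genes were called higher in Snf5 CKO and 21.6% lower, and in males 14.4% of 12279 were called higher and 17.4% lower. Over all tested genes the median log2 fold change was -0.13 in females and -0.07 in males. Rescaling by the median of ratios moved these medians to 0.02 and 0.07, and rescaling to a common sum moved the male one to -0.26 and the share of higher among male called genes from 45.2% to 33.8%. With the median of ratios that share was 54.5% in males, and in females it went from 44.5% to 52.8%, so which direction held more calls depended on the scaling. The summed FPKM of a library lay between 673741 and 1554757, and named genes held 57.9% to 94.5% of it.

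Of the 9 members tested in females, 4 were called higher in Snf5 CKO and 0 lower by limma, and the median log2 fold change was 0.99. At an unadjusted p under 0.05 and any fold, Mdm2 was the 1 member that was lower. Those called higher were Trp53, Cdkn1a, Phlda3 and Ccng1. Of the 10 members tested in males, 5 were called higher and 1 lower, with a median of 0.85. The same 4 genes and Trp53inp1 rose, and Fas fell. With each gene's own variance in place of a moderated one, a setting chosen after seeing the data, Trp53 alone of these was still called in males, and the others had adjusted p from 0.059 to 0.071. Both Snf5 CKO libraries lay above both controls for 7 of 9 members in females, where this held for 36.4% of all tested genes, and for 6 of 10 in males, where it held for 34.5%. They lay below both controls for 2 members in females and 4 in males, against 45.1% and 40% of all tested genes.

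**Figure D1:**
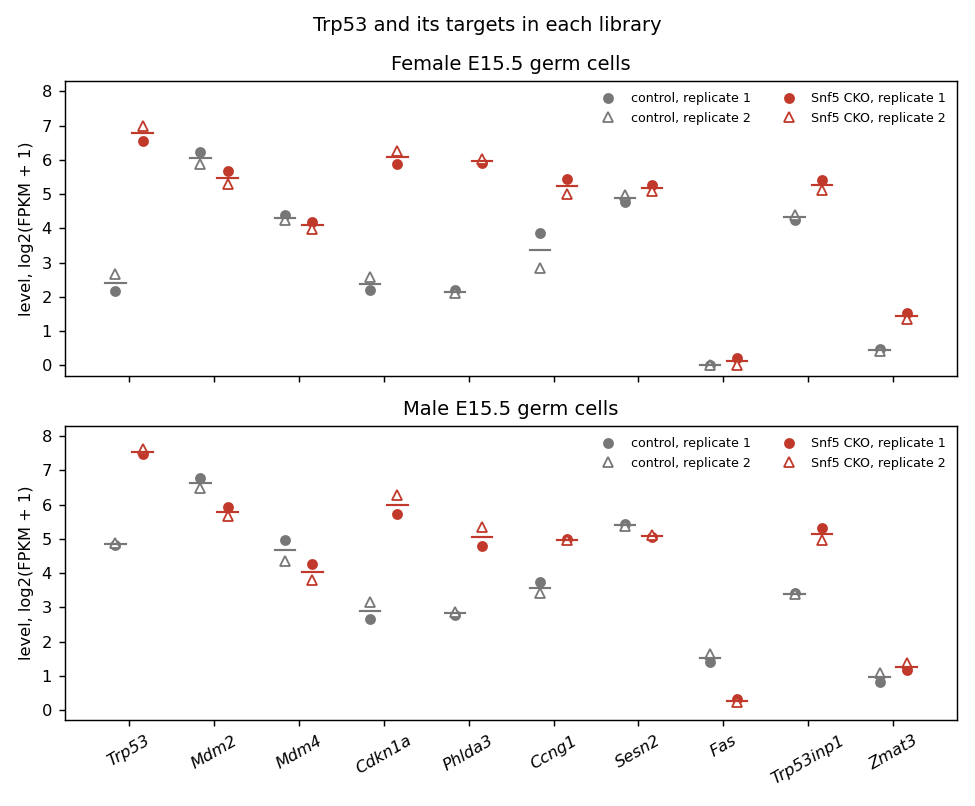
Level of each member as log2(FPKM + 1) in each library, in female germ cells (upper panel) and male germ cells (lower panel). Grey marks are controls, red marks are Snf5 CKO, circles are replicate 1, open triangles replicate 2, and short lines are the means of 2 libraries. Trp53, Cdkn1a and Phlda3 in Snf5 CKO stand far above the controls in both panels, while Mdm2 in Snf5 CKO lies below them.

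Trp53 (chr11:69580359-69591873) was at 3.49 and 5.3 FPKM in the female controls and at 92.5 and 126 FPKM in the female Snf5 CKO libraries. In males it was at 27 and 28.3 FPKM in controls and at 176 and 197 FPKM in Snf5 CKO. All Snf5 CKO libraries were above all controls of their sex, and the female controls were the lowest of the 4 groups. The mean was 24.8 times higher in female Snf5 CKO, with a log2 fold change of 4.36 (SE 0.24, adjusted p = 9.7e-05). The male mean was 6.74 times higher, with a log2 fold change of 2.71 (SE 0.17, adjusted p = 0.0021). Only 24 of the 11529 tested genes in females and 118 of the 12279 in males had a larger rise. In the labels, the raw file names of replicate 1 begin alike in all groups, and those of replicate 2 have another style. Within replicate number 1 the log2 difference was 4.38 in females and 2.66 in males, and within number 2 it was 4.33 and 2.76.

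The confidence bounds that the quantification gave Trp53 in the Snf5 CKO libraries did not meet those of the controls in either sex. Among the other members this held for Cdkn1a and Phlda3 in females and for none in males. Wrap53, whose gene starts beside Trp53 on the other strand, was at 16.6 and 18.7 FPKM in female controls and 21.7 and 20.5 in female Snf5 CKO. In males Wrap53 was at 37.6 and 31.8 in controls and 25.4 and 24.1 in Snf5 CKO. The log2 fold change of Wrap53 was 0.24 (adjusted p = 0.25) in females and -0.47 (adjusted p = 0.082) in males, so neither passed the test. The exons of Wrap53 and Trp53 do not overlap in the annotation. A processed pseudogene, Trp53-ps, is annotated on chromosome 17 and has no row in either table, so whether it shared reads with Trp53 was not tested.

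The gene patterns most like that of Trp53 were sought over the 8 libraries, with log2(FPKM + 1) centred within each table. These points share libraries and the genotype split, so the coefficients are a description. Over 10471 genes, Efna1, a membrane-bound ephrin ligand, and Phb2, a mitochondrial prohibitin, were among the most alike, with a Pearson coefficient of 0.998 each. Phlda3 was in place 46 at 0.994 and Cdkn1a in place 143 at 0.986, while Zmat3 was at 0.928, Ccng1 at 0.909, Trp53inp1 at 0.846 and Sesn2 at 0.173. Mdm4 at -0.622 and Mdm2 at -0.868 had negative coefficients.

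Mdm2 (chr10:117688875-117710758), the ubiquitin ligase that limits p53, was at 73.7 and 58 FPKM in female controls and at 49.7 and 38.1 in female Snf5 CKO. The male libraries were at 108 and 88.5 in controls and at 60 and 49.4 in Snf5 CKO. Mdm2 was thus not higher in any Snf5 CKO library than in any control of its sex. The log2 fold change was -0.58 (SE 0.21, adjusted p = 0.049) in females and -0.83 (SE 0.20, adjusted p = 0.025) in males. Both missed the fold threshold, so Mdm2 was called in neither sex. The values ranged over the alternative settings from -0.76 to -0.39 in females and from -1.02 to -0.67 in males, so the sign was kept in each setting.

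Mdm4 (chr1:132986001-133037281 in the female table), the p53-binding partner of Mdm2, was at 19.9 and 17.9 FPKM in female controls and 17.3 and 14.9 in female Snf5 CKO. Its male values were 30.5 and 19.6 in controls and 18.2 and 13 in Snf5 CKO. Both Snf5 CKO libraries were below both controls in each sex. In males the difference was -0.71 within replicate number 1 and -0.56 within number 2 on the log2 scale. The log2 fold change was -0.22 (SE 0.18, adjusted p = 0.31) in females and -0.64 (SE 0.29, adjusted p = 0.13) in males, and neither passed. With the replicate block the male adjusted p was 0.0014, with the fold threshold still missed. The female table holds a second row of the same name and coordinates, and summing both rows turned the female value to 0.09 (adjusted p = 0.67).

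The ratio of Trp53 to Mdm2 within a library was 0.0474 and 0.0914 in female controls and 1.86 and 3.3 in female Snf5 CKO. In males this ratio was 0.251 and 0.32 in controls and 2.93 and 3.99 in Snf5 CKO. Mdm2 RNA thus exceeded Trp53 RNA in every control library, and Trp53 exceeded Mdm2 in every Snf5 CKO library. A ratio within a library does not depend on how libraries were scaled. The ratio of Mdm2 to Mdm4 moved less, from 3.71 and 3.24 to 2.87 and 2.56 in females, and in males it overlapped between 3.54 and 4.51 in controls and 3.3 and 3.8 in Snf5 CKO.

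**Figure D2:**
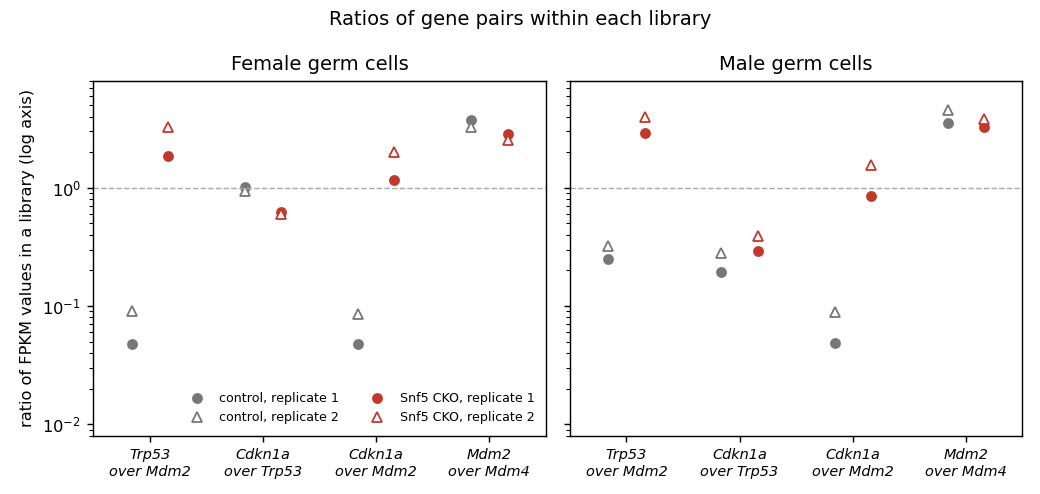
Ratio of the FPKM values of 2 genes within each library, on a log axis, for female (left) and male (right) germ cells. Grey is control, red is Snf5 CKO, circles are replicate 1 and open triangles replicate 2, and the dashed line is a ratio of 1. Trp53 over Mdm2 is below 1 in every control and between 1.86 and 3.99 in Snf5 CKO.

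Cdkn1a (chr17:29090986-29100722) encodes p21, the inhibitor of cyclin-dependent kinases through which p53 stops the cell cycle. It was at 3.55 and 5.01 FPKM in female controls and at 57.6 and 75.7 in female Snf5 CKO. Male levels were 5.27 and 7.94 in controls and at 51.5 and 76.4 in Snf5 CKO. The library values of the groups were far apart in both sexes and reached a like level in the Snf5 CKO libraries of each. In males the confidence bounds met, with an upper bound of 15.8 in control replicate 2 and a lower bound of 14.1 in Snf5 CKO replicate 1. The mean was 15.6 times higher in females, with a log2 fold change of 3.68 (SE 0.22, adjusted p = 9.9e-05). The male rise was 9.69 times, with a log2 fold change of 3.09 (SE 0.29, adjusted p = 0.0026). Within replicate numbers 1 and 2 the log2 difference was 3.69 and 3.67 in females and 3.07 and 3.11 in males. The Cdkn1a gene shares 273 exonic bases with an annotated transcript of the opposite strand, and the library kit does not mark strand, so reads there cannot be told apart.

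Cdkn1a per Trp53 RNA was lower in female and higher in male Snf5 CKO, with no test of this difference. This ratio was 1.02 and 0.946 in female controls and 0.623 and 0.601 in female Snf5 CKO. In males it was 0.195 and 0.28 in controls and 0.293 and 0.388 in Snf5 CKO. The ratio of Cdkn1a to Mdm2, a pair of p53 targets, was 0.0481 and 0.0864 in female controls and 1.16 and 1.99 in female Snf5 CKO. The male values of that ratio were 0.0488 and 0.0898 in controls and 0.859 and 1.55 in Snf5 CKO. The mean of the Cdkn1a to Mdm2 ratio was therefore 23.4 times higher in female and 17.4 times higher in male Snf5 CKO.

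Phlda3 (chr1:135766085-135769134), a p53 target whose product competes with the kinase Akt for membrane lipids, was at 3.56 and 3.34 FPKM in female controls and at 59.1 and 64.6 in female Snf5 CKO. In males it was at 5.85 and 6.32 in controls and at 26.8 and 39.4 in Snf5 CKO. Replicates lay close together in females, and the male Snf5 CKO libraries were lower than the female ones. Phlda3 rose 17.9 times in females, with a log2 fold change of 3.82 (SE 0.17, adjusted p = 9.7e-05). The male rise was 5.44 times, with a log2 fold change of 2.24 (SE 0.24, adjusted p = 0.003). In females 52 genes had a larger rise, and in males 268.

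Ccng1 (chr11:40748552-40755286), which encodes cyclin G1, a partner of a phosphatase that acts on Mdm2, was at 13.5 and 6.21 FPKM in female controls and at 42.3 and 31.1 in female Snf5 CKO. The male libraries were at 12.3 and 9.69 in controls and at 30.7 and 30 in Snf5 CKO. As a ratio, the female controls differed from each other more than any other pair of Ccng1 replicates, and the groups did not overlap. The log2 fold change was 1.86 (SE 0.34, adjusted p = 0.0033) in females and 1.40 (SE 0.19, adjusted p = 0.0052) in males. The female call was lost without the filter on low genes (adjusted p = 0.11).

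Trp53inp1 (chr4:11156441-11174377), a nuclear protein induced by stress that takes part in p53-driven apoptosis and in autophagy, was at 18.1 and 20 FPKM in female controls and at 41.1 and 33.9 in female Snf5 CKO. Its male values were 9.77 and 9.39 in controls and at 39.1 and 30.4 in Snf5 CKO. The Snf5 CKO libraries reached like levels in the sexes from controls that were lower in males. The male log2 fold change was 1.75 (SE 0.20, adjusted p = 0.0034), a called rise. The female value of 0.94 (SE 0.18, adjusted p = 0.004) missed the fold threshold and passed it after rescaling by the median of ratios, at 1.10.

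Zmat3 (chr3:32334776-32367438 in the female table), a zinc finger protein that binds RNA, was among the least abundant members. It was at 0.396 and 0.333 FPKM in female controls and at 1.89 and 1.54 in female Snf5 CKO. Male levels were 0.775 and 1.11 in controls and at 1.24 and 1.57 in Snf5 CKO. The female log2 fold change of 0.99 (SE 0.19, adjusted p = 0.0038) lay just under the fold threshold. A pseudocount of 0.1 raised it to 1.97 and past it. In females Zmat3 passed the filter of a mean of 1 FPKM only through the Snf5 CKO libraries. The male value was 0.31 (SE 0.19, adjusted p = 0.23).

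Sesn2 (chr4:132492030-132510598 in the female table), a sestrin that restrains the growth kinase mTORC1 under stress, was at 26.5 and 30.5 FPKM in female controls and 37.2 and 32.7 in female Snf5 CKO. In males it was at 42 and 40.4 in controls and 32.5 and 33.5 in Snf5 CKO. The female Snf5 CKO libraries were higher and the male ones lower than their controls, by small amounts. The log2 fold change was 0.29 (SE 0.17, adjusted p = 0.19) in females and -0.31 (SE 0.16, adjusted p = 0.16) in males, and neither passed the test. Its relative Sesn1 was at 37.6 and 29.6 in female controls and 10.8 and 7.69 in female Snf5 CKO, a called fall with a log2 fold change of -1.76 (adjusted p = 0.00076). In males Sesn1 was at 21.4 and 18.2 in controls and 10.7 and 8.57 in Snf5 CKO, where the value of -0.97 (adjusted p = 0.016) missed the fold threshold.

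Fas (chr19:34290659-34327770) encodes a death receptor of the cell surface. It is listed at 0 in both female controls and at 0.162 and 0.0143 FPKM in female Snf5 CKO, below the level needed for testing. The male libraries were at 1.67 and 2.1 in controls and at 0.245 and 0.175 in Snf5 CKO. Fas was the only member called lower at the fold threshold, with a mean 8.97 times lower in male Snf5 CKO. Its log2 fold change there was -1.25 (SE 0.17, adjusted p = 0.0051). Both male Snf5 CKO values were under 1 FPKM, so Fas passed the filter of a mean of 1 FPKM only through the controls. Such a gene is tested only where 1 group is high, so the call is no independent support for a fall. The summed level of 5 markers of Leydig cells, the steroid-producing cells of the testis, was 85.7 and 58.2 FPKM in male controls. It was 19.2 and 15.1 in the male Snf5 CKO, and all 5 markers were lower. Among them Insl3 was read from a row merged with Jak3, at 35.9 and 32.7 in controls and 10.3 and 10.1 in Snf5 CKO. The sum of 6 markers of stromal cells was 15.1 and 8.04 in male controls and 3.12 and 2.3 in the male Snf5 CKO, with all 6 lower. The part of these cells in the Fas values was not tested. With bulk libraries, fewer cells of a type and less RNA per cell cannot be told apart.

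**Figure D3:**
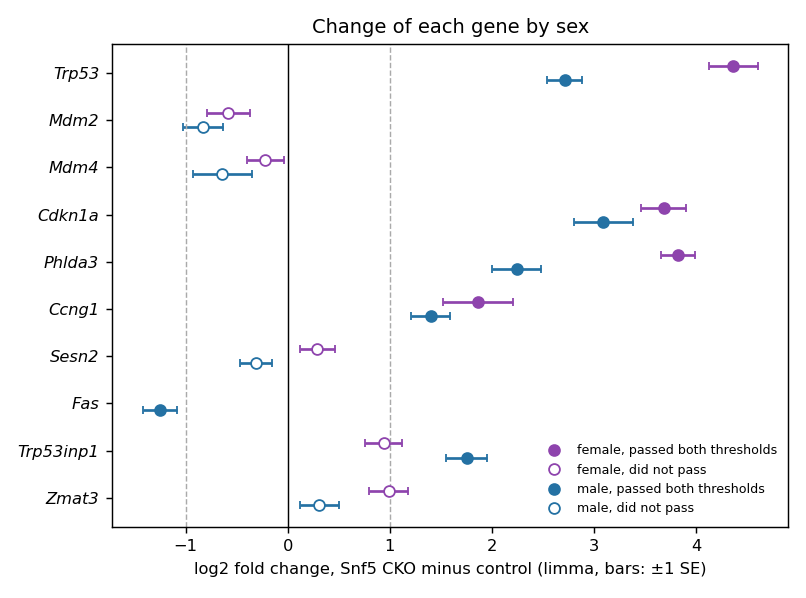
Log2 fold change of each member, Snf5 CKO minus control, in females (purple) and males (blue). Bars are 1 standard error on either side from limma, filled marks passed the fold and the p threshold, and dashed lines mark a log2 fold change of 1 in either direction. The filled marks above 1 are Trp53, Cdkn1a, Phlda3 and Ccng1 in both sexes and Trp53inp1 in males, and Fas in males is the only filled mark below -1.

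The order of the levels differed between the genotypes. In the female controls Mdm2 was the highest member with a mean of 65.8 FPKM, followed by Sesn2 at 28.5, Trp53inp1 at 19 and Mdm4 at 18.9, a pair that overlapped. Ccng1 came next at 9.86, then Trp53 at 4.39, Cdkn1a at 4.28 and Phlda3 at 3.45. Trp53 overlapped with Cdkn1a and Cdkn1a with Phlda3, while Zmat3 at 0.364 and Fas at 0 were lowest. In female Snf5 CKO Trp53 was first at 109, above Cdkn1a at 66.6 and Phlda3 at 61.9, which overlapped. Mdm2 at 43.9, Trp53inp1 at 37.5, Ccng1 at 36.7 and Sesn2 at 35 followed, each overlapping with the next.

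Male controls had Mdm2 first with a mean of 98.2 FPKM, then Sesn2 at 41.2, and Trp53 at 27.7 overlapping with Mdm4 at 25.1. Ccng1 at 11 overlapped with Trp53inp1 at 9.58, Cdkn1a at 6.61 overlapped with Phlda3 at 6.08, and Fas at 1.88 and Zmat3 at 0.942 were lowest. In male Snf5 CKO Trp53 was first at 187, followed by Cdkn1a at 64 and Mdm2 at 54.7, which overlapped. Trp53inp1 at 34.8, Phlda3 at 33.1 and Sesn2 at 33 overlapped with their neighbours, above Ccng1 at 30.4 and Mdm4 at 15.6. Trp53 was the most abundant member in both Snf5 CKO groups and Mdm2 in both control groups.

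A list of 38 further p53 targets was read in the same way. In females 33 of them were tested, of which 14 were called higher and 3 lower, with a median log2 fold change of 0.60. In males 33 were tested, of which 14 were called higher and 2 lower, with a median of 0.70. The male count of 16 changed targets was 7 without the filter on low genes, 10 at a mean of at least 5 FPKM, 10 on linear FPKM and 1 without moderation of the variances. These were 42.4% higher and 9.09% lower in females and 42.4% higher and 6.06% lower in males, beside 17.3% and 21.6% of all tested genes in females and 14.4% and 17.4% in males. The 3 that fell in females were Ddb2, Rrm2b and Sesn1, and the 2 that fell in males were Xpc and Tnfrsf10b. Some of those called higher passed the filter of a mean of 1 FPKM only through Snf5 CKO. They were Psrc1 and Plk3 in females, Eda2r and Rrm2b in males, and Trp53cor1 in both. Such calls are no independent support for a rise.

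Among the targets linked to apoptosis, Bbc3, which encodes the BH3-only protein PUMA, was at 0.931 and 1.32 FPKM in female controls and 13.9 and 19.4 in female Snf5 CKO. Its male values were 1.08 and 2.2 in controls and 7.5 and 11.3 in Snf5 CKO. Its log2 fold change was 3.04 (adjusted p = 0.00014) in females and 1.99 (adjusted p = 0.0075) in males. Bax, the pore-forming protein that PUMA helps to set free, was at 31.5 and 64.7 in female controls and 166 and 317 in female Snf5 CKO, with a log2 fold change of 2.32 (adjusted p = 0.0029). The male Bax values were 78.5 and 155 in controls and 239 and 478 in Snf5 CKO, with 1.61 (adjusted p = 0.044). Bax was higher in replicate 2 than in replicate 1 in all 4 groups.

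Apaf1, the scaffold of the apoptosome, was at 2.36 and 1.63 in male controls and 9.83 and 5.41 in the male Snf5 CKO, a log2 fold change of 1.49 (adjusted p = 0.017). In females Apaf1 was at 6.98 and 5.22 in controls and 11 and 7.17 in Snf5 CKO, and the value of 0.49 (adjusted p = 0.13) did not pass. Eda2r, a receptor of the tumor necrosis factor family, rose in both sexes, with 1.97 (adjusted p = 0.00033) in females and 1.55 (adjusted p = 0.0037) in males. The male Eda2r values were 0.458 and 0.662 in controls and 3.29 and 3.84 in Snf5 CKO. Eda2r thus passed the male filter only through Snf5 CKO. Tnfrsf10b, a death receptor like Fas, was at 5.59 and 7.94 in male controls and 2.38 and 2.97 in the male Snf5 CKO, with -1.07 (adjusted p = 0.019). In females Tnfrsf10b was at 2.07 and 3.42 in controls and 4.51 and 4.68 in Snf5 CKO, where 0.60 (adjusted p = 0.059) did not pass. Further targets linked to apoptosis were called in neither sex. Pmaip1, which encodes NOXA, was at -0.06 in females and 0.54 in males, Perp at -0.06 and 0.63, and Aen at 0.15 and 0.21. Ei24, at 0.89 and 0.86, missed the fold threshold.

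The largest changes among targets with other roles included Ddit4, an inhibitor of mTORC1 signaling. It was at 3.52 and 4.29 FPKM in female controls and 60.5 and 71.6 in female Snf5 CKO, with a log2 fold change of 3.77 (adjusted p = 9.7e-05). Male levels were 26.4 and 32.3 in controls and 56.5 and 74.3 in Snf5 CKO, with 1.12 (adjusted p = 0.013). Psrc1, a microtubule-associated protein, rose by 2.66 (adjusted p = 0.00011) in females and 2.35 (adjusted p = 0.0023) in males, the largest male rise on the list. With female controls at 0.468 and 0.397, Psrc1 passed the female filter only through Snf5 CKO. Sulf2, an enzyme that trims heparan sulfate outside the cell, rose by 2.72 (adjusted p = 0.00016) in females and 4.68 times on the FPKM scale (adjusted p = 0.0037) in males. Pml, the organizer of nuclear bodies, rose by 2.75 (adjusted p = 0.00011) and 1.15 (adjusted p = 0.024).

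The DNA repair gene Ddb2, which recognizes ultraviolet damage, was at 186 and 183 FPKM in female controls and 28.7 and 33.5 in female Snf5 CKO. In males Ddb2 was at 7.28 and 8.46 in controls and 17.1 and 20.8 in Snf5 CKO. It thus fell in females, with a log2 fold change of -2.53 (adjusted p = 0.00011), and rose in males, with 1.17 (adjusted p = 0.0091). Rrm2b, a subunit of ribonucleotide reductase, had the same pattern, with -2.01 (adjusted p = 0.00023) in females and 1.06 (adjusted p = 0.0096) in males. With both male controls at 0.743, Rrm2b passed the male filter only through Snf5 CKO. Xpc, a sensor of nucleotide damage, was at 48.8 and 38.9 in male controls and 21.4 and 16.8 in the male Snf5 CKO, with -1.16 (adjusted p = 0.011).

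**Figure D4:**
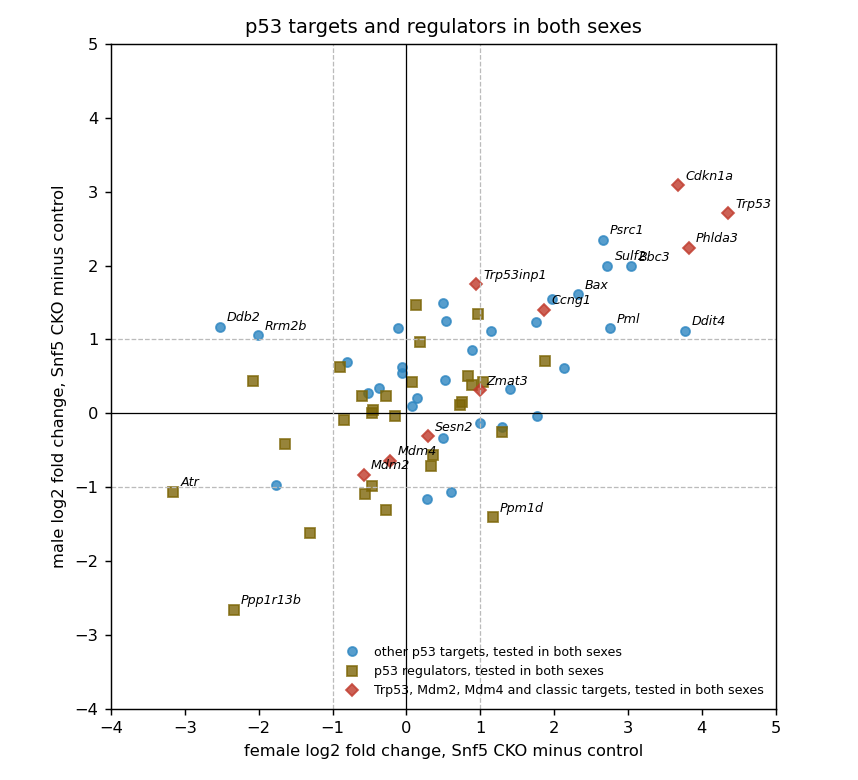
Log2 fold change, Snf5 CKO minus control, in females (horizontal) and in males (vertical) for genes tested in both sexes. Red diamonds are Trp53, Mdm2, Mdm4 and the classic targets, blue circles the other p53 targets and brown squares the regulators of p53, with dashed lines at 1 and -1. Cdkn1a, Trp53, Phlda3, Psrc1, Bbc3 and Sulf2 lie at the upper right, and Ddb2 and Rrm2b lie at the upper left.

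Of 31 listed genes that act on p53, some rose and others fell. In females 29 were tested, of which 4 were called higher and 5 lower, with a median log2 fold change of -0.16. In males 30 were tested, of which 2 were called higher and 5 lower, with a median of 0.02. These shares were 13.8% higher and 17.2% lower in females and 6.67% higher and 16.7% lower in males, near or under those of all tested genes.

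Among the kinases that sense DNA breaks and stalled forks, Atr and Atm fell in females, and Prkdc, at a log2 fold change of -0.46 (adjusted p = 0.12), did not pass. Atr was at 317 and 256 FPKM in female controls and 33.1 and 29.2 in female Snf5 CKO, with a log2 fold change of -3.16 (adjusted p = 9.9e-05), and Atm fell by 2.08 (adjusted p = 0.00025). In males the value was -1.06 (adjusted p = 0.073) for Atr and 0.44 (adjusted p = 0.5) for Atm. The checkpoint kinase Chek2 rose in females, with 1.88 (adjusted p = 0.00026), and its male value of 0.71 (adjusted p = 0.034) missed the fold threshold. Chek1 rose in males, with 1.47 (adjusted p = 0.0046), and was at 0.13 (adjusted p = 0.57) in females. Hipk2, a kinase that phosphorylates p53, fell in females, with -1.65 (adjusted p = 0.0019), and was at -0.41 (adjusted p = 0.28) in males.

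Cdkn2a, whose locus encodes p16 and the Mdm2 inhibitor ARF, was at 10.9 and 13.7 FPKM in female controls and 5.07 and 3.72 in female Snf5 CKO. In males it was at 7.15 and 7.19 in controls and 1.34 and 2.04 in Snf5 CKO. It fell in both sexes, with a log2 fold change of -1.31 (adjusted p = 0.0023) in females and -1.62 (adjusted p = 0.0047) in males. A gene-level value does not separate the p16 and ARF transcripts. Ppp1r13b, which encodes ASPP1, a protein that directs p53 to apoptotic targets, fell by 2.34 (adjusted p = 0.00014) in females and by 2.66 (adjusted p = 0.0021) in males.

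Ppm1d, a phosphatase that is a p53 target and turns off p53 signaling, was at 10.4 and 7.33 FPKM in female controls and 24.9 and 17.6 in female Snf5 CKO. The male libraries were at 56.1 and 50.3 in controls and 20 and 18.7 in Snf5 CKO. Ppm1d rose in females, with a log2 fold change of 1.17 (adjusted p = 0.0061), and fell in males, with -1.41 (adjusted p = 0.0037). Usp7, which removes ubiquitin from Mdm2 and p53, was at 0.89 (adjusted p = 0.011) in females and 0.38 (adjusted p = 0.41) in males and was called in neither. Rchy1, a further ubiquitin ligase for p53, fell in males, with -1.31 (adjusted p = 0.0072), and was at -0.28 (adjusted p = 0.18) in females. Rpl11, a ribosomal protein that binds Mdm2, rose in males, with 1.34 (adjusted p = 0.034), and its female value was 0.97 (adjusted p = 0.037).

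The p53 relatives were low in every library. Trp63 was at 2.04 and 1.86 FPKM in male controls and 0.362 and 0.275 in the male Snf5 CKO. Its male log2 fold change was -1.16 (adjusted p = 0.0053), and it passed the filter of 1 FPKM only through the controls. In females Trp63 was at 0.0912 and 0.298 in controls and 0.0163 and 0.0363 in Snf5 CKO and was not tested. Trp73 was at 0.158 and 0.206 in female controls and 1.88 and 1.68 in female Snf5 CKO. The male Trp73 values were 0.262 and 0.234 in controls and 0.967 and 0.929 in Snf5 CKO, and this gene was too low to be tested in either sex.

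Markers of gonadal cells other than germ cells moved with the genotype. The summed level of 6 germ cell markers was high in all libraries, from 1855 to 3001 FPKM in females and from 4356 to 4848 in males. Its members moved in different directions with the genotype. In females Dppa3 was 29.7 times, Pou5f1 24.7 times and Tfap2c 40.5 times higher in Snf5 CKO (adjusted p up to 0.0001). Mael was 3.79 times lower in females (log2 fold change -1.94, adjusted p = 0.00086), and Ddx4 at -0.54 and Dazl at -0.39 did not pass. In males Tfap2c rose, with 3.03 (adjusted p = 0.0021), Mael fell, with -2.97 (adjusted p = 0.0023), and the other 4 were not called. In males the sum of 7 Sertoli cell markers was 94.6 and 67.5 FPKM in controls and 406 and 583 in Snf5 CKO, and 7 of 7 were higher. Among them, Sox9 rose from 2.98 and 2.51 to 11.1 and 11.4. Thus the male rises of Trp53, Cdkn1a, Phlda3, Ccng1 and Trp53inp1 came with a rise of Sertoli markers, and the part of Sertoli cells in them was not tested. The cells had been sorted for Oct4-EGFP, and whether this gate kept out Sertoli cells alike in both genotypes was not tested. In females the defining Sertoli markers Sox9 and Amh were at most 0.132 FPKM in any library, while the sum of the list was 4.36 and 5.18 in controls and 13.5 and 13.1 in Snf5 CKO. The sum of 6 pre-granulosa markers, from the supporting cells of the ovary, was 7.93 and 9.97 in female controls and 19.4 and 16.1 in female Snf5 CKO, with 5 of 6 higher. The female Leydig sum was 4.74 and 4.89 in controls and 12 and 11.8 in Snf5 CKO. Most of it was Insl3, read from a row merged with Jak3, at 3.13 and 3.99 in controls and 8.52 and 10.1 in Snf5 CKO. Only 2 of the 5 Leydig markers had both female Snf5 CKO libraries above both controls. The female stromal sum was 7.77 and 2.5 in controls and 1.51 and 2 in Snf5 CKO. The sums of endothelial and blood markers overlapped between the genotypes in females, from 15.2 to 48.9, and lay between 40.8 and 62.2 in males. Hemoglobin weighed on these sums, with Hba-a1 from 1.47 to 41.1 among the female libraries. Single endothelial markers did move. Pecam1 rose in females, with 2.23 (adjusted p = 0.0002), and Tek fell in males, with -1.16 (adjusted p = 0.006). Cdh5 and Kdr, under 1 FPKM throughout, were below both controls in each sex. No pre-granulosa marker was at 0 in all female libraries, and the part of these cells in the female rises was not tested.

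**Figure D5:**
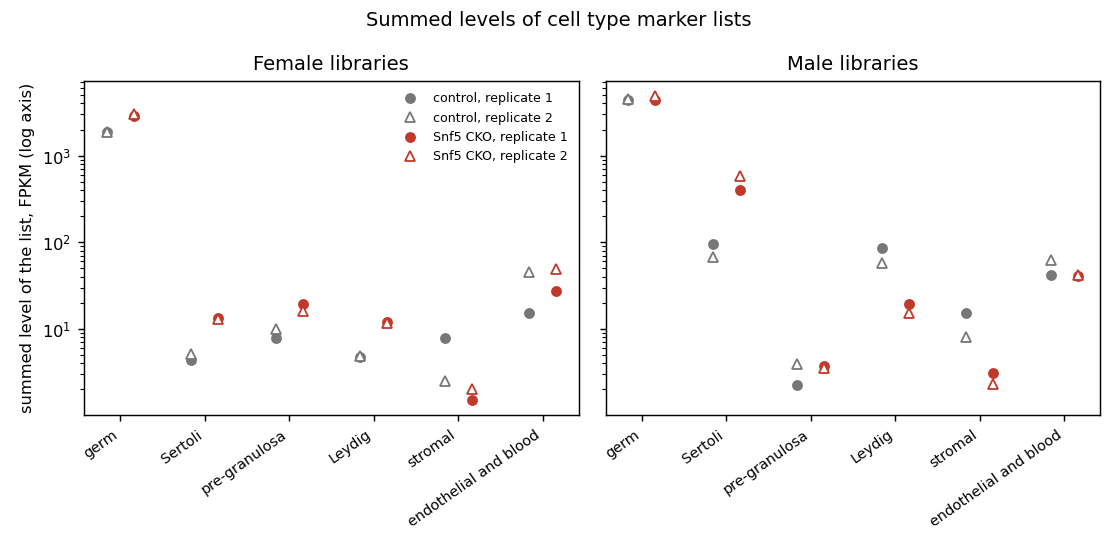
Summed FPKM of fixed marker lists in each library, on a log axis, for females (left) and males (right). Grey is control, red is Snf5 CKO, circles are replicate 1 and open triangles replicate 2. The Sertoli list rises from 94.6 and 67.5 to 406 and 583 FPKM in males and stays at or under 13.5 FPKM in females, while the germ cell list is at 1855 FPKM or more throughout.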

How the data were processed

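RNA of Oct4-EGFP-sorted E15.5 germ cells was amplified with the SMART-Seq v4 kit, made into libraries with Nextera XT, which does not mark strand, and sequenced paired-end. The authors mapped reads to mm10 with TopHat and quantified them with Cufflinks, in one run per sex. The submitters' processing notes name TopHat2 2.2.1 and Cuffdiff 2.1.1, and the annotation version is not given in the sources used here. The deposited values are FPKM with confidence bounds for each locus and library. Multi-mapped reads, the normalization inside the run and merged loci can all move an FPKM value.

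The tables hold no counts. Under 0.1 FPKM, the most frequent ratio of a library to control replicate 1 was shared by 13.2% to 23.8% of loci, so whole reads were not recovered and the depth is unknown. No counting interval is given.

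Groups follow the sample labels. A gene was found by its symbol, also within merged names, and the row with the highest mean FPKM was used. Each sex was fitted alone in R 4.3.3 with limma 3.58.1 (lmFit, eBayes with trend) on log2(FPKM + 1) on the named genes whose mean was 1 FPKM or more, 2 libraries against 2, with Benjamini-Hochberg adjustment over all tested genes. A call needed a log2 fold change of at least 1 in size and an adjusted p under 0.05. Where 1 group lay under 1 FPKM, a gene passed the filter only through the other group. On simulated data the fit rightly called 49% of genes given a log2 change of 1.5 in females and 37% in males. For a change of 3 it called 91% and 70%. In each sex 100 genes were given each size of change, all at a mean log2(FPKM + 1) above 3, and the rest were unchanged. Far fewer genes changed there than were called in the data, so these shares do not carry over. Lower genes such as Zmat3 and Fas lay outside the simulated range. A gene that did not pass may thus still have changed. P-values measure the spread between pools of cells. An exact permutation test of 2 against 2 cannot go under 0.333 and was not used.

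The members, the lists of other targets, regulators and markers, and the tests were chosen with earlier results of these data known. The text names all members, up to 6 called genes with the largest change per list and sex whose libraries did not overlap, Sesn1, Ppm1d, Cdkn2a, Usp7, Trp63, Trp73, the 3 genes most like Trp53, of which 1 is not reported here, and Smarcb1. Other names, such as Xpc, Tnfrsf10b, Rrm2b, Wrap53 and the genes under closer look, were chosen after their values were seen.

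The replicate number was taken as a shared batch, an inference from the labels, which name the raw files of numbers 1 and 2 in different styles. Across genes, the difference between replicates 2 and 1 in controls correlated with that in Snf5 CKO, at 0.5 for females and 0.607 for males. The fit without the number is the one reported.

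Alternatives tried were no filter, a minimum mean of 5 FPKM, a pseudocount of 0.1, rescaling to a common sum or by the median of ratios, no trend, the replicate block, summed loci, loci with status OK, and each library left out. A fit without moderation and one on linear FPKM were added after seeing the data. Positions are those of the tables with starts counted from 1. Exons and neighbouring genes are from GENCODE M21, promoter windows from RefSeq on GRCm38.p6. Figures were drawn with matplotlib 3.10.9.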

Additional observations from a re-analysis of the deposited data

Results flagged for a closer look

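In several genes of the pathway both Snf5 CKO libraries lay above the controls in one sex and below them in the other. Over all tested genes they lay above both controls for 36.4% in females and 34.5% in males. They lay below both controls for 45.1% and 40%. The share of all genes with opposite directions in the sexes was not counted, so this is not shown to be a trait of the pathway. The difference between the sexes was not tested in any of them, since the sexes were quantified in separate tables. All values are log2 fold changes, Snf5 CKO minus control, on the log2(FPKM + 1) scale.

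Among the members, Sesn2 was at 0.29 in females and -0.31 in males, and Fas was at 0.12 in females, where it is listed at 0 in both controls, and -1.25 in males. Sesn2 passed the test in neither sex, and Fas was too low to be tested in females.

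Of the other targets, Ddb2 was at -2.53 in females and 1.17 in males, and Rrm2b at -2.01 and 1.06, and both were called in each sex. Plk3, a stress-responsive kinase, was at 1.29 in females and -0.18 in males, and Ckap2, a spindle protein, at 0.99 and -0.13. Tnfrsf10b was at 0.60 and -1.07. Pidd1, a scaffold of the PIDDosome, was at -0.12 and 1.15. Trp53i11 was at 0.50 and -0.34, with neither value past the test.

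Of the regulators, Ppm1d was at 1.17 in females and -1.41 in males and was called in both. Sirt1, a deacetylase of p53, was at -0.90 and 0.63, and Kat8, an acetyltransferase, at 0.36 and -0.57. Ppp1r13l, which encodes the p53 inhibitor iASPP, was at -0.27 and 0.23, and none of these was called in either sex. The female Kat8 value is that of a row merged with Bckdk, while the male row holds Kat8 alone, so the 2 values are of different loci.

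The second row named Mdm4 in the female table, which entered only the setting with summed loci, had a mean of 5.68 FPKM in Snf5 CKO against 1.57 in controls.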

How the results depend on the processing

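Trp53, Cdkn1a and Phlda3 in females and Trp53 in males were called higher under all 15 alternatives, with log2 fold changes of 4.11 to 4.62, 3.48 to 3.94, 3.76 to 4.13 and 2.53 to 2.87. Without moderation of the variances, which leaves 2 degrees of freedom, the male count of members called higher went from 5 to 1, of members called lower from 1 to 0, of other targets changed from 16 to 1 and of regulators from 7 to 2, and the female count of regulators from 9 to 5. The male members Cdkn1a, Phlda3, Ccng1, Fas and Trp53inp1 then had adjusted p from 0.059 to 0.071, with the same fold changes. Male other targets changed numbered 7 without the filter, 10 at a mean of at least 5 FPKM, where fewer genes are tested, and 10 on linear FPKM. No male member was lower, a count of 0, at a mean of at least 5 FPKM or with median-of-ratios rescaling, since Fas fell under the filter. Female Mdm4 turned to 0.09 with summed loci. Female Ccng1 lost its call without the filter (adjusted p = 0.11) and without moderation (adjusted p = 0.13), and female Zmat3 or Trp53inp1 passed under some settings, at 1.01 to 1.97.

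With each library left out in turn, 4 to 6 members were higher in females and 5 in males, 0 were lower in females and 1 in males, 18 to 19 other targets changed in females and 12 to 15 in males, and 7 to 11 regulators in females and 6 to 10 in males. The replicate block changed no member's call, with 4 members higher in females and 5 in males and a Trp53 log2 fold change of 4.36 (adjusted p = 1.4e-05) and 2.71 (adjusted p = 3.4e-05), and it changed no other count by over 1.5 times. The depth is unknown, which limits what can be said of Fas and Zmat3.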

Other observations

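Some p53 targets were too low to be tested. Rprm, which encodes reprimo, a brake on the G2 phase, was at 0.0716 and 0.0373 FPKM in female controls and 0.287 and 0.51 in female Snf5 CKO. The male values were 0.0669 and 0.035 in controls and 0.644 and 0.935 in Snf5 CKO. Ptprv, a phosphatase-like target, was at 0.144 and 0.105 in female controls and 0.391 and 0.367 in female Snf5 CKO, and in males at 0.745 and 0.245 in controls and 1.28 and 1.05 in Snf5 CKO. The cytokine Lif was at 0.08 and 0.031 in female controls and 0.404 and 0.255 in female Snf5 CKO, with male values of 0 and 0.051 in controls and 0.151 and 0.109 in Snf5 CKO. In all 3 genes both Snf5 CKO libraries were above both controls of each sex, and these genes were picked after their values were seen. Within each sex alone, this held for 36.4% of all tested genes in females and 34.5% in males. The share of untested low genes with the pattern in both sexes was not counted. Other low targets did not show it in both sexes. Steap3 overlapped in males, at 0.674 and 0.518 in controls and 0.666 and 1.04 in Snf5 CKO. Ephx1 overlapped in females, at 0.215 and 1.01 in controls and 1.06 and 0.765 in Snf5 CKO. In males Ephx1 was tested and was higher in both Snf5 CKO libraries, with a log2 fold change of 0.99 (adjusted p = 0.023) that missed the fold threshold.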
